A study of Mus musculus with 5 samples.

Results

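The fragments described here are MspI restriction fragments of the mouse genome with 20 or more CpGs, called CpG-dense fragments below. A fragment was taken when its deposited methylation string held 20 or more positions and when 10 or more molecules carried at least 1 CpG call in each of the 3 libraries, at any methylation level. This gave 4401 of the 11786 fragments with 20 or more CpGs, or 37.3%, and the other 7385 had fewer molecules in at least 1 library. Among all 161264 fragments with 2 or more CpGs at that depth, the CpG-dense fragments were 2.73%. They held 20 to 50 CpGs, with a median of 23 and quartiles of 21 and 26, which gave 106094 CpG positions.

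DNA methylation in mammals is carried mainly by cytosines of CpG dinucleotides, which are read on both strands. Most CpGs of the genome are methylated, whereas CpG islands, short stretches dense in CpGs that often cover gene promoters, are usually free of methylation. When a cell divides, the maintenance methyltransferase DNMT1 copies the methylation of the old strand to the new strand, and the DNMT3 enzymes add methylation without a template. Copying lets a molecule's pattern pass to daughter cells, and a clone grown from a single founder therefore starts from the few DNA copies that this founder carried.

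The study used CD8+ T cells, the cytotoxic lymphocytes, from the spleen of C57BL/6 mice. Naive T cells were kept in culture with IL2, sorted as single CD8+ cells and grown into clones, and the design sets these clones beside a non-clonal population of such cells. Clone 1 and clone 2 each had 2 samples taken after 15 cell divisions, and the non-clonal population, labelled primary, had 1 sample. No group carried a mutation or a treatment beyond the culture, and the labels give neither the number nor the age or sex of the mice. Each clone goes back to 1 founder cell, so a clone stands for that cell and not for CD8+ T cells in general. The 2 samples of a clone share 1 deposited file that does not separate them, and the data therefore form 3 libraries without replicates: no value here has a spread between replicates, and each test compares these libraries, not the conditions.

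Each line of the files is a molecule, read as 1 strand of a fragment with its own molecular tag, and its string marks every CpG as methylated, unmethylated or not observed. The libraries held 7013054 molecules with a call in clone 1, 5567534 in clone 2 and 5588357 in the population, from 16036644 reads in clone 1, 15027960 in clone 2 and 17003711 in the population. On the CpG-dense fragments 91906 molecules were counted in clone 1, 88010 in clone 2 and 81325 in the population. The median fragment had 19 molecules in clone 1, 18 in clone 2 and 18 in the population, and the median molecule had 18 observed CpGs in each library. The files name fragments by number and give no coordinates, so no gene, sequence or genome annotation stands beside them, and no marker gene could check the cell type.

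The CpG-dense fragments were almost free of methylation in all 3 libraries. The methylation level of a fragment is the share of its CpG calls that were methylated, over all its molecules. The median level was 0.912% in clone 1, 0.985% in clone 2 and 1.04% in the population, and the mean level was 5.84% in clone 1, 5.99% in clone 2 and 5.38% in the population. A level under 5% was found for 3729 fragments in clone 1, 3666 in clone 2 and 3734 in the population. The mean therefore lies far above the median because of a small number of methylated fragments, which the histogram of levels shows as a thin tail.

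**Figure D1:**
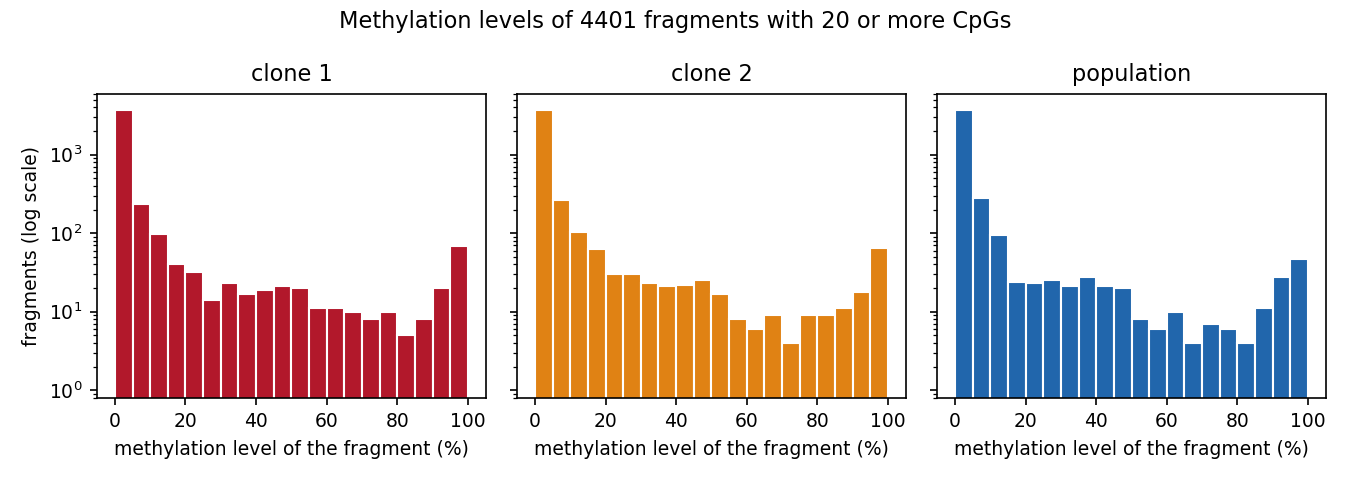
Number of CpG-dense fragments (vertical axis, log scale) by methylation level in bins of 5 percentage points (horizontal axis, %), in clone 1, clone 2 and the population. The first bin holds 3729 fragments in clone 1, 3666 in clone 2 and 3734 in the population, and a smaller group stands near 100%.

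Fragments with fewer CpGs carried more methylation. The mean level over the 24242 fragments with 10 to 19 CpGs was 26.9% in clone 1, 27.1% in clone 2 and 25.7% in the population, and over the 60923 fragments with 5 to 9 CpGs it was 71.4% in clone 1, 72.1% in clone 2 and 70.2% in the population. The decline of the mean continued within the CpG-dense fragments up to 39 CpGs. The median changed little there: with 20 to 24 CpGs it was 0.905% in clone 1, 1% in clone 2 and 1.04% in the population. With 30 to 39 CpGs it was 0.879% in clone 1, 1.01% in clone 2 and 1.03% in the population. The 2884 fragments with 20 to 24 CpGs averaged 6.495% in clone 1, 6.71% in clone 2 and 5.97% in the population, and the 462 fragments with 30 to 39 CpGs averaged 3.17% in clone 1, 3.57% in clone 2 and 2.88% in the population. The 38 fragments with 40 to 50 CpGs averaged 4.56% in clone 1, 4.28% in clone 2 and 4.08% in the population, and 3 of them, fragments 606550, 1389110 and 1578219, were intermediate in all 3 libraries.

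The limits that chose the fragments cut through a continuous range. The 826 fragments with exactly 20 CpGs averaged 7.13% in clone 1, 7.24% in clone 2 and 6.502% in the population, and the 1013 fragments with 19 CpGs, just outside the limit, averaged 9.33% in clone 1, 9.36% in clone 2 and 8.67% in the population. At the depth limit, the 468 fragments whose lowest count was exactly 10 molecules averaged 6.45% in clone 1, 6.76% in clone 2 and 5.83% in the population, and the 503 fragments whose lowest count was 9 averaged 5.95% in clone 1, 6.02% in clone 2 and 5.57% in the population. The 6659 fragments with 20 or more CpGs and a lowest count of 1 to 9 were more methylated, with means of 16.2% in clone 1, 16.3% in clone 2 and 15.1% in the population, so the depth limit kept the less methylated part of the fragments with 20 or more CpGs.

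By level, 4056 of the 4401 fragments, or 92.2%, were under 20% in all 3 libraries and are called low. Another 135, or 3.07%, were between 20% and 80% in all 3 and are called intermediate. A further 89, or 2.02%, were over 80% in all 3 and are called high. The last 121, or 2.75%, fell in different classes in different libraries. The low fragments averaged 1.71% in clone 1, 1.89% in clone 2 and 1.71% in the population, the intermediate ones 46.9% in clone 1, 45.2% in clone 2 and 40.6% in the population, and the high ones 95.4% in clone 1, 95.3% in clone 2 and 94.1% in the population.

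No fragment was under 20% in 1 library and over 80% in another. Of the 4132 fragments under 20% in the population, 4089 were also under 20% in clone 1 and 43 were intermediate there, while 4079 were under 20% in clone 2 and 53 were intermediate there. None of them was over 80% in either clone. Of the 90 fragments over 80% in the population, 90 were over 80% in clone 1 and 89 in clone 2. Of the 179 intermediate fragments of the population, 153 were intermediate in clone 1, 15 were under 20% and 11 over 80% there, and 150 were intermediate in clone 2, 15 under 20% and 14 over 80%.

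A few fragments show what each class looks like. The fragments with the most CpGs were low: fragment 1415012 with 50 CpGs had a level of 0% in clone 1, 2.16% in clone 2 and 0.351% in the population, fragment 1441964 with 50 CpGs had 0.664% in clone 1, 0.478% in clone 2 and 1.91% in the population, and fragment 793148 with 49 CpGs had 1.70% in clone 1, 2.62% in clone 2 and 2.28% in the population. The fragments with the highest levels throughout were fragment 1479392, with 98.7% in clone 1, 99.0% in clone 2 and 97.7% in the population, fragment 1236951, with 98.2% in clone 1, 98.6% in clone 2 and 98.4% in the population, and fragment 608916, with 99.6% in clone 1, 98.4% in clone 2 and 98.1% in the population. On each of these 3 fragments every molecule had most of its observed CpGs methylated, in each library.

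The fragments that stayed nearest to 50% in all 3 libraries were fragment 1044290, with 47.6% in clone 1, 53.4% in clone 2 and 46.1% in the population, fragment 1044431, with 46.6% in clone 1, 49.5% in clone 2 and 53.7% in the population, and fragment 1588524, with 52.0% in clone 1, 47.6% in clone 2 and 52.9% in the population. The same level was built from different molecules. On fragment 1044290 none of the 27 molecules of clone 1 with 10 or more observed CpGs was free of methylation, nor was any of 27 in clone 2 or of 34 in the population. On fragment 1588524, 9 of 28 such molecules were free of methylation in clone 1, 7 of 26 in clone 2 and 11 of 27 in the population.

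The fragments with the most molecules, 1389108, 1389125 and 1389159, had 139 to 151 molecules in each library. The files use 77 different tags, so a fragment cannot show more than 154 molecules over its 2 strands, and these 3 fragments stood near that ceiling. Fragment 1389159 was at 30.3% in clone 1, 30.8% in clone 2 and 33.2% in the population. Fragment 1389125 was at 23.6% in clone 1, 19.2% in clone 2 and 14.3% in the population, 11.4 points apart in methylated molecules between clone 1 and the population (Fisher's exact test, unadjusted p = 0.011, adjusted p = 0.357), and fragment 1389108 was at 21.6% in clone 1, 18.3% in clone 2 and 18.1% in the population. None of the 3 was called in any comparison.

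Single molecules of the CpG-dense fragments were mostly blank. Among molecules with 4 or more observed CpGs, 74.5% had no methylated CpG in clone 1 (67845 of 91043; 95% Wilson interval 74.2 to 74.8), 73.0% in clone 2 (63607 of 87130; 72.7 to 73.3) and 75.3% in the population (60728 of 80673; 74.98 to 75.6). These intervals cover counting error only, and molecules of 1 fragment share their source. A single methylated CpG was carried by 13.6% of molecules in clone 1, 14.2% in clone 2 and 14.1% in the population. Molecules with more than 20% and less than 80% of their CpGs methylated, called mixed below, were 4.01% in clone 1, 4.39% in clone 2 and 3.35% in the population, and molecules with 80% or more were 3.01% in clone 1, 2.82% in clone 2 and 2.58% in the population. In the low fragments taken alone, 80.1% of molecules were free of methylation in clone 1, 78.5% in clone 2 and 80.3% in the population.

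The sparse methylation of the low fragments was not spread evenly. At the CpG nearest to a fragment end, 2.43% of calls were methylated in clone 1, 2.64% in clone 2 and 2.06% in the population, against 1.61% in clone 1, 1.80% in clone 2 and 1.57% in the population at CpGs 5 or more positions inside. On the same molecule, a CpG next to a methylated one was methylated in 11.8% of cases in clone 1, 11.7% in clone 2 and 11.5% in the population, and a CpG next to an unmethylated one in 1.501% in clone 1, 1.67% in clone 2 and 1.45% in the population. At a distance of 8 CpGs from a methylated one the share was 5.67% in clone 1, 5.99% in clone 2 and 5.66% in the population. After an unmethylated CpG at that distance it was 1.55% in clone 1, 1.70% in clone 2 and 1.47% in the population. The share near a methylated CpG was thus lower at 8 CpGs than at 1 but still above that near an unmethylated one, in each library. The pairs were pooled over all low fragments, and differences in level between fragments by themselves raise the share near a methylated CpG. Their part in these values was not tested. Molecules with exactly 1 methylated CpG were 14.2% of those of low fragments in clone 1, 14.8% in clone 2 and 14.5% in the population, and molecules with more than 1 were 5.76% in clone 1, 6.69% in clone 2 and 5.20% in the population. Of 55145 CpGs of low fragments with 10 or more molecules in each library, 32082, or 58.2%, had no methylated call in any of them, and 56 were at 20% or more in all 3.

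Fragments with adjacent numbers carried similar methylation. Whether the numbers follow the genome is not stated in the sources used here. A total of 332 CpG-dense fragments had a number next to that of another, in 170 pairs, and both fragments of a pair were in the same class in 167 pairs in clone 1, 166 in clone 2 and 168 in the population. The 64 adjacent fragments of intermediate ones, with a median of 13 CpGs, averaged 46.0% in clone 1, 49.1% in clone 2 and 39.2% in the population. The 39 adjacent fragments of high ones averaged 94.5% in clone 1, 94.1% in clone 2 and 93.6% in the population, and the 1564 adjacent fragments of low ones 2.87% in clone 1, 3.13% in clone 2 and 2.55% in the population.

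Intermediate fragments gathered in certain stretches of numbers, chosen here after their levels were seen. In the last stretch, from number 1520000 to the last CpG-dense fragment at 1592800, 65 of 85 fragments were intermediate, or 76.5%, and 5 were low. A short stretch from 1040000 to 1044999 held 15 intermediate fragments among 26, or 57.7%. Among the other 4290 CpG-dense fragments 55 were intermediate, or 1.28%. The 2 stretches differed in their molecules. In the last stretch, 31.5% of the intermediate fragments' molecules with 10 or more observed CpGs were free of methylation in clone 1 (95% Wilson interval 28.9 to 34.2), 32.1% in clone 2 (29.4 to 35.0) and 38.8% in the population (35.7 to 41.9). In the short stretch, 7.21% were free of methylation in clone 1 (5.13 to 10.1), 0.648% in clone 2 (0.221 to 1.89) and 4.24% in the population (2.58 to 6.87), while 81.2% were mixed in clone 1, 89.8% in clone 2 and 78.2% in the population.

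Between libraries, most CpG-dense fragments stayed within 5 percentage points. The level in clone 1 was within 5 points of that in the population for 4081 fragments, or 92.7%, and clone 2 was within 5 points of the population for 4045, or 91.9%. The mean difference was 0.469 points for clone 1 against the population and 0.617 points for clone 2 against the population. On the low fragments alone it was 0.00402 points for clone 1 and 0.183 points for clone 2. Differences of 20 points or more ran upwards more often: 50 fragments were higher by that much in clone 1 than in the population and 9 were lower, while 39 were higher in clone 2 than in the population and 16 were lower. The 4132 fragments under 20% in the population had no room to be lower by that much in a clone. Both clones were set against the same population library. Between the clones, 25 fragments were 20 points or more higher in clone 1 than in clone 2 and 22 were lower. The 2 strands gave a check of the levels: of fragments with 10 or more molecules on each strand, 11 of 1479 differed by 20 points or more between strands in clone 1, 7 of 1263 in clone 2 and 1 of 989 in the population.

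To compare fragments as wholes, each molecule was called methylated when more than 50% of its observed CpGs were, and the numbers of methylated and unmethylated molecules were set side by side in Fisher's exact test (two-sided), adjusted by Benjamini-Hochberg over all fragments with 4 or more CpGs. A fragment was called at a difference of 20 points or more with an adjusted p under 0.05. In clone 1, 13 of the 4401 CpG-dense fragments were called higher than in the population and 1 was called lower, or 0.295% and 0.0227%, against 0.739% called higher and 0.363% called lower over all fragments tested (1.1% in either direction). In clone 2, 7 were called higher than in the population and 5 lower, or 0.159% and 0.114%, against 0.859% higher and 0.322% lower over all fragments tested (1.18% in either direction). Between the clones, 15 were called higher in clone 1 than in clone 2 and 9 lower, or 0.341% and 0.204%, against 1.13% higher and 1.33% lower over all fragments tested (2.46% in either direction). The CpG-dense fragments were thus called less often than the whole in each comparison, and fragments with 10 to 19 CpGs lay between, with 0.747% called for clone 1 against the population, 0.672% for clone 2 against the population and 1.28% for clone 1 against clone 2. The level differs between these classes of fragments too, and so does the depth. The median fragment with 10 to 19 CpGs had 23 molecules in clone 1, 21 in clone 2 and 20 in the population. For the CpG-dense fragments it was 19 in clone 1, 18 in clone 2 and 18 in the population. The part of level and depth in the shares called was not tested.

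In all, 36 fragments were called in at least 1 comparison, 13 of them intermediate in all 3 libraries and 23 in different classes. The low and high classes, cut on the levels of the same 3 libraries, leave out fragments with a wide difference, so the absence of calls there follows from the classes. None of the 4056 low fragments was called, and their unadjusted Fisher's exact p was under 0.05 for 0 in clone 1 against the population, 1 in clone 2 against the population and 2 in clone 1 against clone 2. None of the 89 high fragments was called, and none had an unadjusted p under 0.05 in any comparison. The narrowest difference that was called was 32.3 points, at a median of 18 to 19 molecules a fragment. When only molecules at 80% or more were set against those at 20% or less, 3 fragments were called higher and 0 lower in clone 1 than in the population, 4 higher and 1 lower in clone 2 than in the population, and 3 higher and 1 lower in clone 1 than in clone 2. Calls over all fragments tested were not counted under this rule, so these numbers cannot be set beside the whole. The scatter of levels shows the called fragments away from the diagonal and most others close to it.

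**Figure D2:**
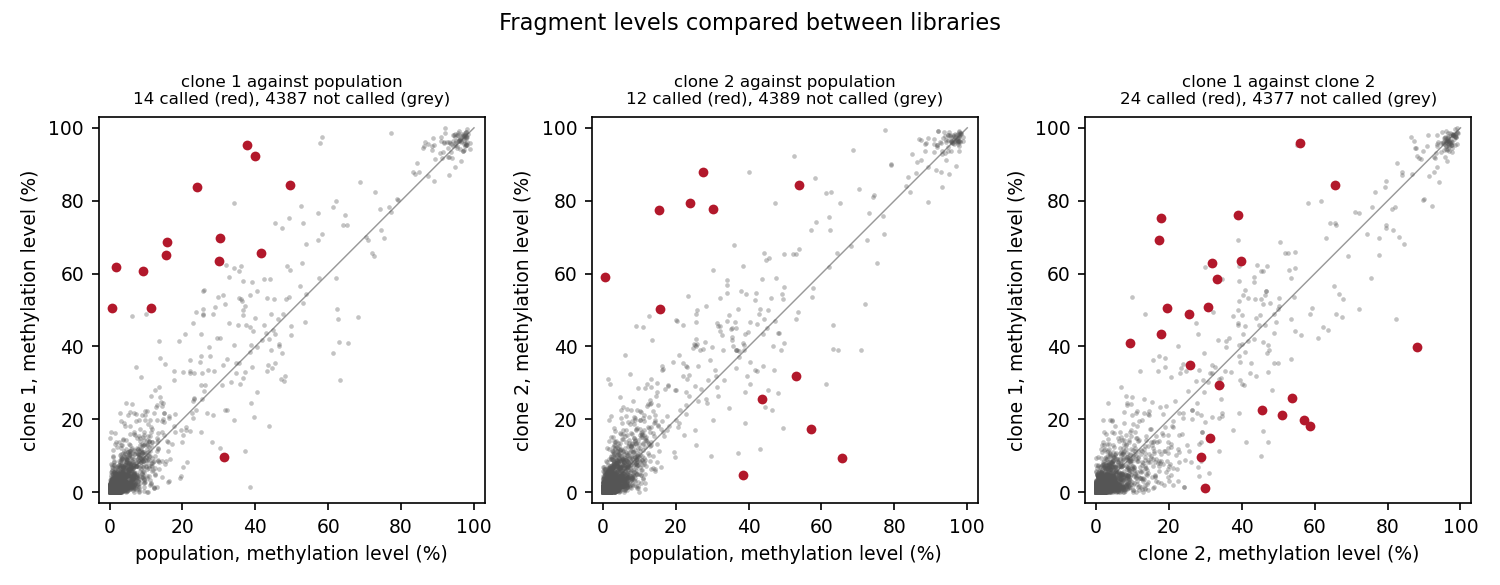
Methylation level (%) of each of the 4401 CpG-dense fragments in clone 1 against the population, clone 2 against the population and clone 1 against clone 2, with the first-named library on the vertical axis and a grey line at equal levels. Called fragments are red: 14 in clone 1 against the population, 12 in clone 2 against the population and 24 in clone 1 against clone 2.

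The widest difference between a clone and the population was that of fragment 1395482, with 23 CpGs. It had 32 methylated molecules of 33 in clone 1, while clone 2 had 21 of 22, against 1 of 21 in the population. It was 92.2 points higher in clone 1 than in the population (Fisher's exact test, adjusted p = 1.97e-08) and 90.7 points higher in clone 2 than in the population (Fisher's exact test, adjusted p = 2.14e-06). Its methylated CpG calls made up 83.9% in clone 1 and 79.4% in clone 2, against 23.96% in the population, so nearly all molecules of both clones were mostly methylated while those of the population carried scattered methylation.

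Another 4 fragments were called higher in both clones. On fragment 608055, with 35 CpGs, clone 1 had 16 methylated molecules of 17, while clone 2 had 14 of 14, against 1 of 10 in the population. On fragment 1001450, with 22 CpGs, clone 1 had 16 of 22, while clone 2 had 22 of 24, against 2 of 19 in the population. On fragment 267165, with 29 CpGs, clone 1 had 17 of 19, while clone 2 had 9 of 16, against 1 of 22 in the population. In the population the methylated share of CpG calls was 30.3% on 608055, 15.5% on 1001450 and 15.7% on 267165. Both comparisons used the same population library. The 4 adjusted p-values of fragments 608055 and 1001450 ran up to 0.0146, and fragment 267165 had 2.41e-05 in clone 1 and 0.0477 in clone 2, all by Fisher's exact test.

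Fragment 383265, with 24 CpGs, was the least methylated in the population of those called in both clones. It had 10 methylated molecules of 20 in clone 1, while clone 2 had 11 of 17, against 0 of 20 in the population, where a count of 0 allows up to 16.1% by the 95% Wilson interval. The difference was 50 points in clone 1 (Fisher's exact test, adjusted p = 0.0423) and 64.7 points in clone 2 (Fisher's exact test, adjusted p = 0.00376). No molecule with 10 or more observed CpGs was mixed in any library: in clone 1, 9 of 18 were free of methylation, in clone 2, 5 of 14, and in the population 16 of 18. Fragment 383262, close by in number and with 31 CpGs, had 19 methylated molecules of 31 in clone 1, while clone 2 had 8 of 18, against 1 of 20 in the population, and was called in clone 1 (Fisher's exact test, adjusted p = 0.012) but not in clone 2 (adjusted p = 0.26). The clones themselves were not called different there (Fisher's exact test, adjusted p = 1).

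Several fragments were called in 1 clone against the population. On fragment 689674, with 20 CpGs, clone 1 had 17 methylated molecules of 25, while clone 2 had 6 of 26, against 0 of 34 in the population. The difference passed in clone 1 (Fisher's exact test, adjusted p = 7.78e-06) but not in clone 2 (adjusted p = 0.202), and clone 1 against clone 2 missed the threshold as well (adjusted p = 0.0698). Fragment 1521355, with 25 CpGs, was the only one called lower in clone 1: it had 0 of 33 in clone 1, while clone 2 had 10 of 31, against 9 of 23 in the population (Fisher's exact test, adjusted p = 0.0158 for clone 1 against the population). It lies in the last stretch of numbers. In clone 2 the lower calls were led by fragment 131740, with 21 CpGs, which had 10 of 19 in clone 1, while clone 2 had 0 of 29, against 16 of 24 in the population (Fisher's exact test, adjusted p = 6.24e-05 for clone 2 against the population). The remaining 4 were fragments 1523702, 553213, 1040788 and 131723. Their shares of methylated molecules differed by -61.5, -56.3, -51.7 and -44.4 points between clone 2 and the population. On each of these fragments the methylation levels of clone 2 and the population lay closer together than these shares. Fragment 131723, close in number to 131740, had 0 of 21 in clone 1, while clone 2 had 0 of 32, against 8 of 18 in the population, where clone 1 missed the threshold (Fisher's exact test, adjusted p = 0.0594).

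Set against each other, the clones differed in both directions. The widest fragment higher in clone 1 was 1041453, with 26 CpGs. It had 39 methylated molecules of 41 in clone 1, while clone 2 had 6 of 35 and the population 3 of 24. The share of methylated molecules differed by 78.0 points between clone 1 and clone 2 (Fisher's exact test, adjusted p = 1.96e-09). Its methylation level was 63.4% in clone 1, 39.8% in clone 2 and 29.9% in the population. On fragment 1040788, with 23 CpGs, clone 1 had 28 of 36, while clone 2 had 1 of 30 and the population 11 of 20 (Fisher's exact test, adjusted p = 1.73e-07). Here the population lay between the clones. The level of this fragment was 63.0% in clone 1, 31.8% in clone 2 and 52.9% in the population. The widest fragment lower in clone 1 was 1538689, with 22 CpGs. It had 1 of 29 in clone 1, while clone 2 had 24 of 35 and the population 8 of 21. The share of methylated molecules differed by -65.1 points between clone 1 and clone 2 (Fisher's exact test, adjusted p = 1.54e-05). Its methylation level was 21.3% in clone 1, 51.2% in clone 2 and 28.4% in the population. On all of these fragments the levels of the clones lay closer together than their shares of methylated molecules. Of the 26 CpG-dense fragments in the short stretch of numbers, 7 were called in at least 1 comparison, 1041453 and 1040788 among them. Of the 85 in the last stretch, 5 were called, 1538689 among them, and of the other 4290 CpG-dense fragments 24 were called. The stretches were chosen for their intermediate levels, and the part of the level in these counts was not tested.

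Single molecules show what these calls consist of. Below are the leading patterns of mixed molecules on fragments 1538689 and 1041453, shown because they are the widest differences between the clones: a filled circle is a methylated CpG, an open circle an unmethylated one and a dot one not observed, from the first to the last CpG of the fragment. The pattern is that of the molecule with the most others within 20% mismatch.

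1538689, clone 1: ○○○○○●○●●○○●○○○●○○○○●·
1538689, clone 2: ●●○●○●●○●●○●●●○●●●●●●·
1538689, population: ·○●●●●●●●●○●●○○●○○○●○●
1041453, clone 1: ●●●●○○●●●○○●○●○●○●○○●○●●●·
1041453, clone 1, next: ··○○●●○●●●●○●●●○○○●●○·●●○●
1041453, clone 2: ●●○○●●○○●○○●●○●○○●○○●○●●○·
1041453, clone 2, next: ○●○○○○○○○○○○○○○○○○●○○●●●●·
1041453, population: ·●··○●○·○●·○○○○●○●○○○○○○○·

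On fragment 1538689 the pattern of clone 1 stood for 12 of 13 mixed molecules, 9 on the plus strand and 3 on the minus strand. The pattern of clone 2 stood for 15 of 15 mixed molecules, 5 on the plus strand and 10 on the minus strand, whereas the leading one of the population stood for 2 of 11. Beside them, molecules without any methylation were 10 of 24 in clone 1, 10 of 34 in clone 2 and 9 of 21 in the population, among those with 10 or more observed CpGs. Each clone therefore held a group of unmethylated molecules and a group that repeated 1 mixed pattern, and the repeated pattern was a different one in each clone. A pair of mixed molecules differed on average at 16.5% of CpGs in clone 1, 13.5% in clone 2 and 50.5% in the population, and at 54.5% when 1 came from each clone.

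On fragment 1041453 clone 1 held a pair of patterns, with 23 and 12 of 38 mixed molecules, and clone 2 held another pair, with 17 and 10 of 32. The leading pattern of the population stood for 2 of 17 mixed molecules. Hardly any molecule was blank: 0 of 39 molecules with 10 or more observed CpGs in clone 1, 1 of 34 in clone 2 and 2 of 24 in the population. Fragment 383265, by contrast, had blank and fully methylated molecules side by side in the clones, as the map of single molecules shows.

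**Figure D3:**
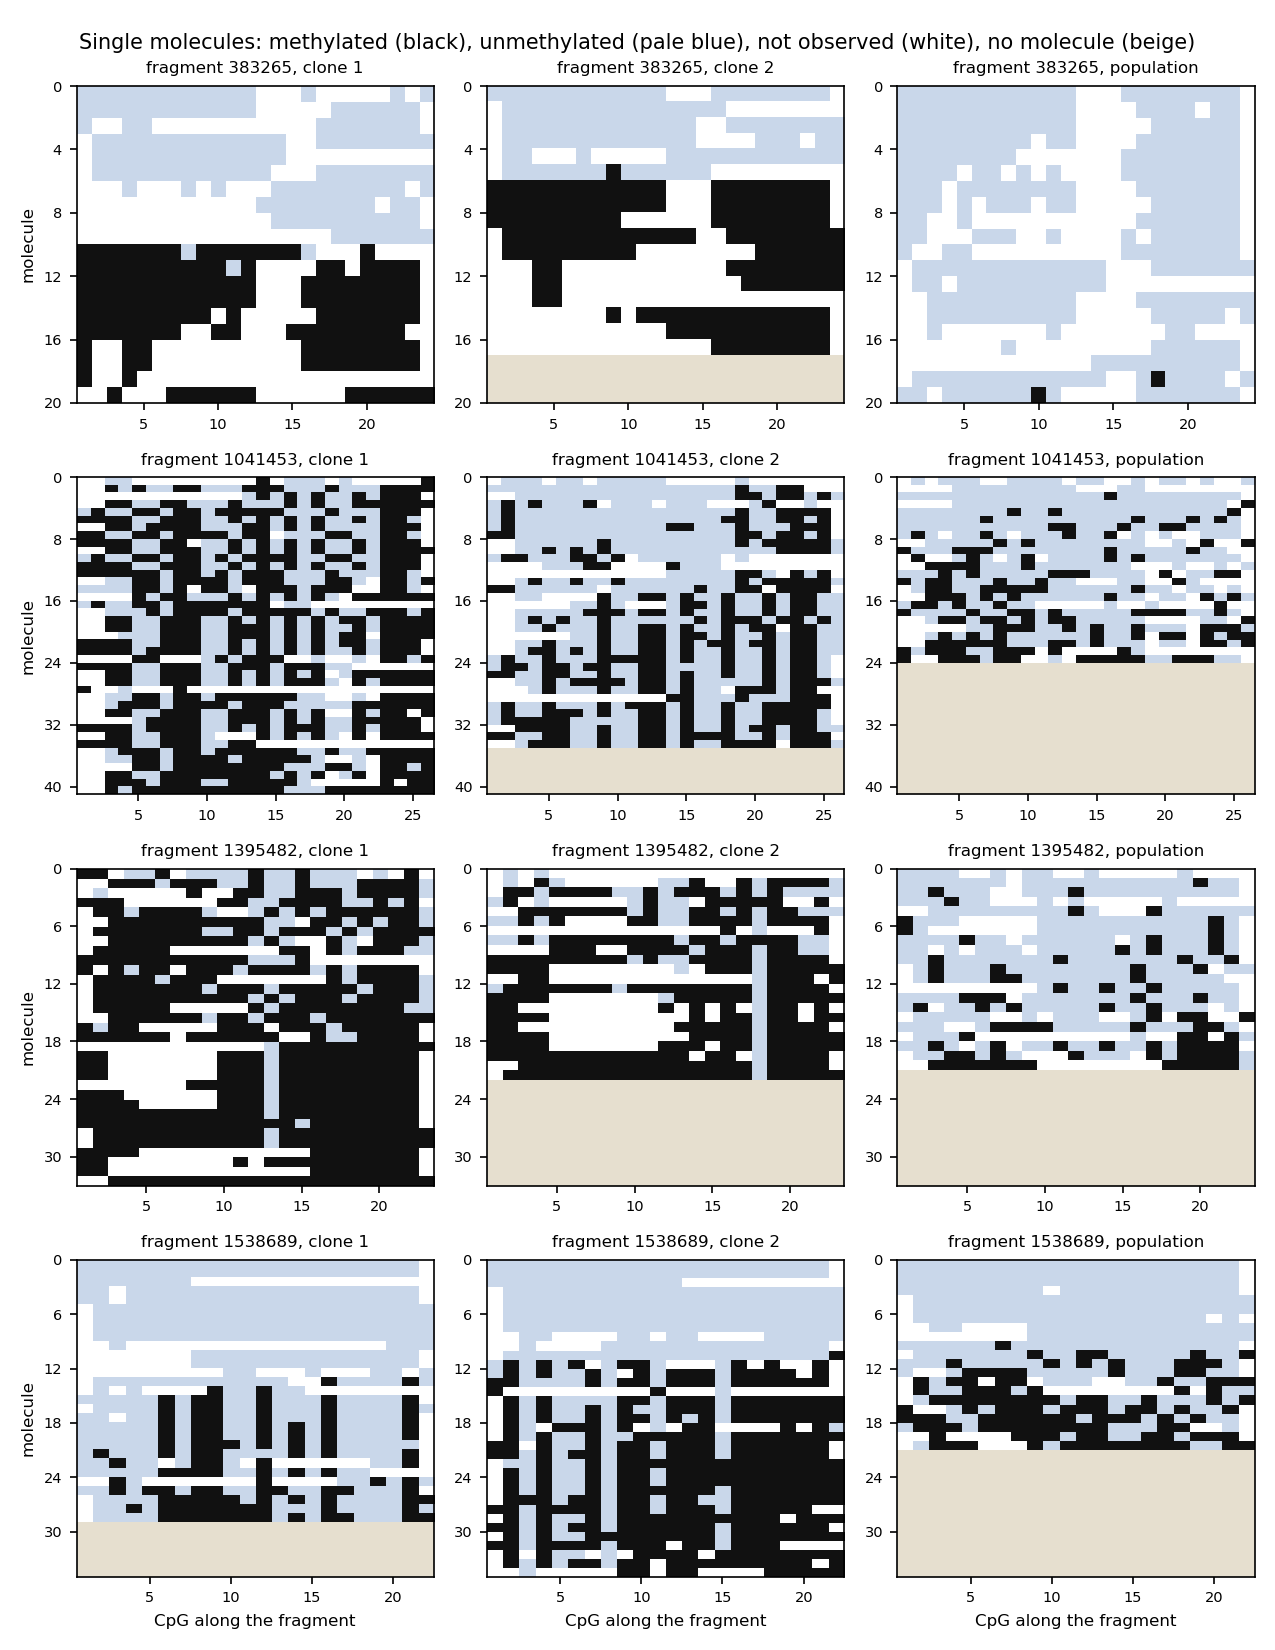
Every molecule of fragments 383265, 1041453, 1395482 and 1538689 (rows) in clone 1, clone 2 and the population (columns); each line is a molecule, sorted by its share of methylated CpGs, and the horizontal axis counts CpGs along the fragment. Vertical stripes repeat within each clone on 1041453 and 1538689, with none in the population. The stripes differ between the clones only in part. On 1041453, CpG 14 was at 97.4% in clone 1 and 8.82% in clone 2, whereas CpG 23 was at 100% in both clones. On 1538689, some CpGs were likewise methylated in the leading patterns of both clones. Fragment 383265 has 20 molecules in clone 1, 17 in clone 2 and 20 in the population.

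On most fragments where mixed molecules were frequent, those of a clone were more alike than those of the population. A total of 97 CpG-dense fragments had 5 or more mixed molecules with 10 or more observed CpGs in each library, of which 67 were intermediate, 26 in different classes, 3 low and 1 high. For each fragment the mismatch is the mean share of CpGs that differ between 2 mixed molecules of a library, over pairs with 10 or more CpGs observed in both. It averaged 25.3% in clone 1, 26.2% in clone 2 and 41.7% in the population. If each CpG call were drawn independently at the molecules' mean level, it would be 45.8% in clone 1, 46.5% in clone 2 and 47.1% in the population. Mixed molecules of the population thus differed from each other nearly as much as independent calls would, and those of a clone differed less. The mismatch was lower than in the population on 92 of 97 fragments in clone 1 and on 87 in clone 2, both clones being set against 1 population library. It was not lower on every fragment rich in mixed molecules: fragment 1389139 had 47.5% in clone 1, 47.3% in clone 2 and 42.8% in the population.

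**Figure D4:**
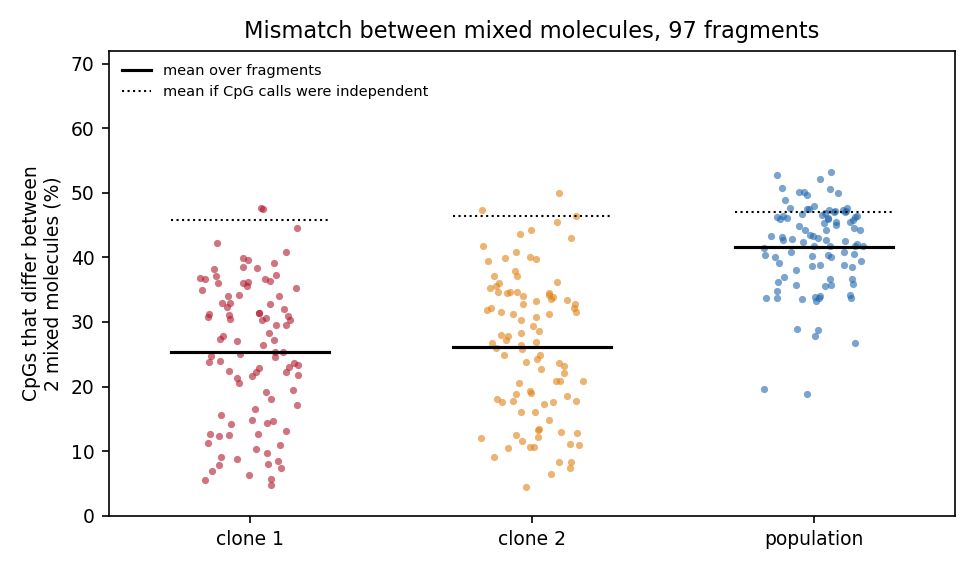
Mean mismatch between mixed molecules (% of jointly observed CpGs, vertical axis) for each of 97 fragments (points) in clone 1, clone 2 and the population; horizontal lines are means over fragments, 25.3% in clone 1, 26.2% in clone 2 and 41.7% in the population, and dotted lines the mean for independent calls.

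Pairs of mixed molecules within 10% of each other made up 28.6% of pairs in clone 1, 23.4% in clone 2 and 2.20% in the population, as means over the 97 fragments. On average over these fragments, likeness held within a clone and not between clones. A molecule of clone 1 and a molecule of clone 2 differed at 41.7% of CpGs, about as much as 2 molecules of the population, and the values were 42.2% between clone 1 and the population and 43.0% between clone 2 and the population. On 87 of the 97 fragments the mismatch between the clones was higher than that within either. Single fragments were alike in both clones: on fragment 1533064 the mismatch was 17.8% between the clones and 40.3% within the population. Over pairs on opposite strands, which are not amplification copies of 1 strand, the mismatch was 26.3% in clone 1, 27.4% in clone 2 and 42.0% in the population, on 83 fragments. The mismatch was lowest in the last stretch of numbers, where it was 12.4% in clone 1, 14.0% in clone 2 and 40.3% in the population on 18 fragments. In the short stretch it was 28.7% in clone 1, 31.7% in clone 2 and 45.5% in the population on 18 fragments, and on the other 61 fragments 28.1% in clone 1, 28.2% in clone 2 and 40.9% in the population. The 362 fragments with 10 to 19 CpGs that met the same limits had 22.9% in clone 1, 23.9% in clone 2 and 39.9% in the population, so the pattern was not particular to the CpG-dense fragments.

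Epipolymorphism, the chance that 2 molecules carry different patterns over 4 consecutive CpGs, gave the same order on the intermediate fragments, with means of 0.626 in clone 1, 0.638 in clone 2 and 0.759 in the population over 1029 windows with 10 or more molecules in each library. On the low fragments it was 0.0891 in clone 1, 0.0958 in clone 2 and 0.102 in the population over 33705 windows. On the high fragments it was 0.233 in clone 1, 0.197 in clone 2 and 0.277 in the population over 341 windows.

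Read CpG by CpG, the same Fisher's exact test found differences that the fragment totals did not show. In clone 1, 339 CpGs of CpG-dense fragments were called higher than in the population and 36 lower, of 65428 tested, or 0.573%, against 1.87% of all CpGs tested (1.06% higher and 0.812% lower). In clone 2, 319 were called higher than in the population and 38 lower, of 63786, or 0.560%, against 1.72% of all CpGs tested (1.1% higher and 0.615% lower). Between the clones, 679 were called higher in clone 1 than in clone 2 and 670 lower, of 65915, or 2.05%, against 5.39% of all CpGs tested (2.56% higher and 2.83% lower). Of the 528 fragments with such a call between the clones, 146, or 27.7%, had CpGs called in both directions. The share was 22.7% of 4353 such fragments with 10 to 19 CpGs and 11.8% of 12258 with 5 to 9 CpGs, where fewer CpGs are tested on a fragment. Fragment 1584456 had 5 of 21 tested CpGs higher in clone 1 than in clone 2 and 6 lower, and fragment 1142690 had 4 of 32 higher and 7 lower, both picked for illustration after their values were seen. The calls fell on 18.2% of the tested CpGs of intermediate fragments, 19.6% of those of fragments in different classes, 3.06% of those of high fragments and 1.01% of those of low ones. These classes were cut on the levels of the same 3 libraries, so the order of the shares follows in part from the classes.

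Low fragments, of which none was called as a whole, still held CpGs called between the clones. In all, 292 CpGs on 203 fragments were higher in clone 1 than in clone 2 and 327 CpGs on 228 fragments were lower. Together they were 1.01% of 61331 tested CpGs of low fragments, below the 5.39% over all CpGs tested between the clones. Where clone 1 was higher, the median level of the called CpG was 53.8% in clone 1 (quartiles 47.6 and 61.6) and 0% in clone 2, with 5.13% in the population. Where clone 2 was higher, it was 0% in clone 1 and 55.2% in clone 2 (quartiles 46.2 and 63.1), with 5.88% in the population. The level of the higher clone lay between 30% and 70% for 251 of 292 CpGs in clone 1 and 283 of 327 in clone 2, and reached 90% for 18 in clone 1 and 16 in clone 2. Low levels are missing from these values, since a call needs a wide difference at this depth.

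**Figure D5:**
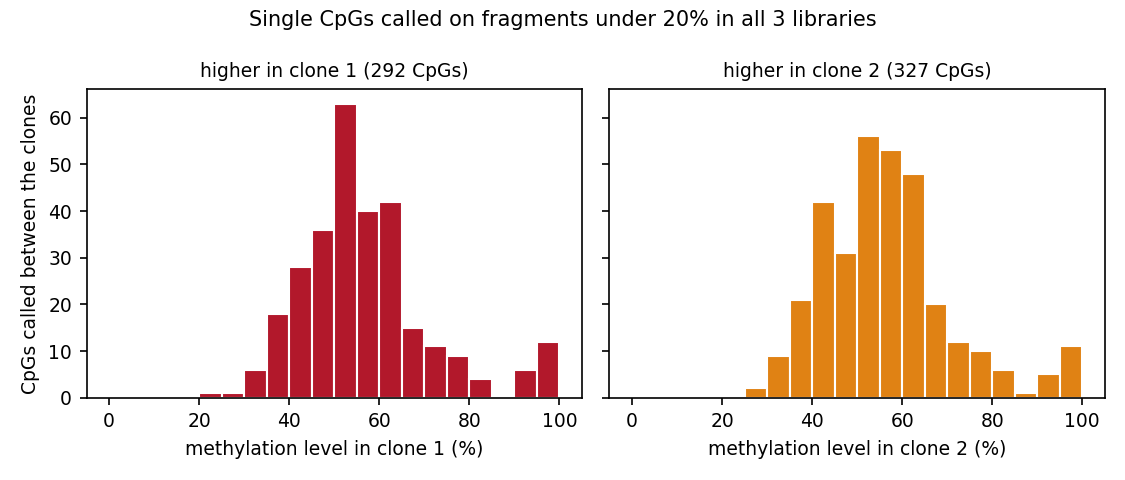
Number of single CpGs on low fragments called between the clones (vertical axis) by methylation level in the clone where the CpG was higher (horizontal axis, %): clone 1 on the left with 292 CpGs and clone 2 on the right with 327. Most levels lie between 30% and 70% (251 in clone 1 and 283 in clone 2), with a small group of 18 in clone 1 and 16 in clone 2 at 90% or more.

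Because the fragments were under 20% in every library and the CpGs were called for a wide difference, the remaining CpGs had to be lower, and their levels are given as a description. Where clone 1 was higher, the rest of the fragment had a median level of 5.95% in clone 1 and the CpGs right beside the called one 12.5%, and 59 of the 292 had an adjacent CpG that was called too. Where clone 2 was higher, the rest of the fragment had a median of 6.44% in clone 2 and the CpGs beside it 10.9%, and 68 of 327 had an adjacent call. Both strands carried the methylation: of CpGs with 5 or more molecules on each strand in the higher clone, 254 of 261 in clone 1, while clone 2 had 274 of 284 were at 20% or more on both strands. The strand medians were 54.5% on the plus strand and 53.8% on the minus strand in clone 1, and 55.6% on the plus strand and 50% on the minus strand in clone 2.

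Against the population fewer CpGs of low fragments were called, and almost all were higher in the clone. The calls were 0.220% of 60884 tested CpGs in clone 1 against the population and 0.245% of 59566 in clone 2 against the population, below the 1.87% and 1.72% over all CpGs tested. Clone 1 against clone 2 had 1.01% of 61331, below 5.39% over all CpGs tested. In clone 1, 132 CpGs on 105 low fragments were called higher than in the population, with a median level of 60% in clone 1 and 0% in the population, and 2 were called lower. In clone 2, 144 CpGs on 113 low fragments were called higher than in the population, with a median of 59.0% in clone 2 and 0% in the population, and 2 were called lower. A CpG that is methylated on few molecules of the population has little room to be called lower.

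The called CpGs with the most molecules in all 3 libraries give examples. On fragment 651580, with 23 CpGs, CpG 11 was methylated on 16 of 43 molecules in clone 1, while clone 2 had 1 of 39 and the population 1 of 32 (Fisher's exact test, adjusted p = 0.00287 for clone 1 against clone 2). The other CpGs of the fragment were at 2.11% in clone 1, 1.26% in clone 2 and 1.54% in the population. On fragment 90675, with 22 CpGs, CpG 10 was methylated on 1 of 53 molecules in clone 1, while clone 2 had 16 of 52 and the population 2 of 52 (Fisher's exact test, adjusted p = 0.0016). Fragment 652570, with 21 CpGs, had a call in each direction: CpG 10 was methylated on 9 of 40 molecules in clone 1, while clone 2 had 0 of 40 and the population 3 of 32 (adjusted p = 0.0449, exact test), and CpG 16 on 0 of 39 in clone 1, while clone 2 had 17 of 40 and the population 3 of 33 (adjusted p = 0.00014, Fisher's exact tests). The 2 clones thus carried methylation at different CpGs of 1 fragment whose total stayed low in both.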

How the data were processed

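DNA of 5 samples (2 of clone 1, 2 of clone 2, 1 of the population) was cut with MspI, size-selected, ligated into tagged plasmids, treated with bisulfite and then amplified by PCR (per the labels' protocols). Bismark and the build mm9 are named in the submitters' processing notes; their versions, any filters and the way replicates were merged were not given in the sources used here. The 3 deposited tables, without headers, list for each fragment number, strand and tag a methylation string and a whole-number count of reads; a further whole number of unstated meaning was not used. Fragments have no coordinates.

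Each tag on a strand counted as 1 molecule, so separate molecules with the same tag are merged. Methylated against unmethylated molecules were compared by two-sided Fisher's exact tests per fragment (4 or more CpGs) and per CpG, with 10 or more molecules in both libraries, Benjamini-Hochberg adjustment over all fragments or CpGs tested, and a call at an adjusted p under 0.05 and 20 points or more. No test used a spread between replicates. Intervals are 95% Wilson intervals for counting error. Python 3.11.15, numpy 2.4.6, scipy 1.17.1 and numba 0.67.0 were used, and the tests and the mismatch were tested on simulated data.

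Named by rule were the 5 called fragments with the widest difference per comparison and direction, the 3 with the most CpGs, the 3 highest, the 3 nearest 50%, the 3 with the most molecules and those called in both clones. The fragments and lists were chosen with earlier results of these data known. Alternatives changed depth, CpG minimum, strand, reads per molecule, end CpGs, deep strands and the rule for a methylated molecule.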

Additional observations from a re-analysis of the deposited data

Results flagged for a closer look

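Clone 1 and clone 2 were compared directly by Fisher's exact test on counts of methylated and other molecules, with Benjamini-Hochberg adjustment over all fragments tested. The test separated the clones on 24 of the 4401 CpG-dense fragments, or 0.545%, against 2.46% over all fragments tested. The 5 widest with more methylated molecules in clone 1 were fragment 1041453 with a difference of 78.0 points, fragment 1040788 with 74.4 points, fragment 554077 with 73.3 points, fragment 1392370 with 67.1 points and fragment 553213 with 65.2 points. The 5 widest with fewer in clone 1 were fragment 1538689 with -65.1 points, fragment 691868 with -61.5 points, fragment 386800 with -56.5 points, fragment 1587586 with -55.3 points and fragment 213395 with -53.8 points. These points are differences in the share of methylated molecules. On each of these fragments the methylation levels of the clones lay closer together than these shares. On fragment 554077, clone 1 had 11 methylated molecules of 15, while clone 2 had 0 of 19 and the population 5 of 11. On fragment 1392370, clone 1 had 22 of 23, while clone 2 had 8 of 28 and the population 14 of 17. On fragment 386800, clone 1 had 0 of 23, while clone 2 had 13 of 23 and the population 2 of 11. Each value rests on 1 library a group, so the test compares these libraries.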

How the results depend on the processing

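No paired analysis was possible because the 2 replicates of each clone share 1 deposited file, and for the same reason no replicate could be left out. Of the values under other settings, 131 moved and 70 did not. The depth, CpG number, strand and read settings keep fewer fragments or molecules by construction; for the others the cause was not tested. The settings on the last stretch of numbers and on mismatch were chosen after seeing the data. Under the other settings, calls were counted for CpG-dense fragments only and not over all fragments or CpGs tested. With 20 or more molecules in each library (950 fragments), the mean level was 5.62% in clone 1, 5.72% in clone 2 and 5.14% in the population. Intermediate fragments numbered 47 in clone 1, 50 in clone 2 and 41 in the population. Blank molecules made up 72.9% in clone 1, 71.1% in clone 2 and 72.8% in the population. Fragments called were 4 higher in clone 1 against the population, 2 higher and 1 lower in clone 2 against the population and 8 higher and 3 lower in clone 1 against clone 2. CpGs called were 121 higher and 13 lower in clone 1 against the population, 128 higher and 12 lower in clone 2 against the population and 249 higher and 255 lower in clone 1 against clone 2. With 25 or more CpGs (1517 fragments), the mean level was 4.61% in clone 1, 4.63% in clone 2 and 4.25% in the population. Intermediate fragments numbered 59 in clone 1, 62 in clone 2 and 56 in the population. Blank molecules made up 74.1% in clone 1 and 74.4% in the population. Fragments called were 4 higher in clone 1 against the population, 2 higher and 1 lower in clone 2 against the population and 8 higher and 2 lower in clone 1 against clone 2. CpGs called were 95 higher and 7 lower in clone 1 against the population, 84 higher and 2 lower in clone 2 against the population and 225 higher and 178 lower in clone 1 against clone 2. On the plus strand alone (936 fragments), the mean level was 6.48% in clone 1, 6.55% in clone 2 and 5.91% in the population. Intermediate fragments numbered 58 in clone 1, 58 in clone 2 and 50 in the population. Blank molecules made up 71.6% in clone 1, 70.4% in clone 2 and 72.0% in the population. Fragments called were 2 higher and 0 lower in clone 1 against the population, 1 higher and 0 lower in clone 2 against the population and 3 higher and 1 lower in clone 1 against clone 2. CpGs called were 32 higher and 1 lower in clone 1 against the population, 19 higher and 1 lower in clone 2 against the population and 84 higher and 92 lower in clone 1 against clone 2. On the minus strand alone (955 fragments), the mean level was 5.32% in clone 1, 5.43% in clone 2 and 5.10% in the population. Intermediate fragments numbered 44 in clone 1, 48 in clone 2 and 43 in the population. Blank molecules made up 72.8% in clone 1, 70.9% in clone 2 and 73.2% in the population. Fragments called were 2 higher and 0 lower in clone 1 against the population, 0 higher and 0 lower in clone 2 against the population and 1 higher and 0 lower in clone 1 against clone 2. CpGs called were 26 higher and 2 lower in clone 1 against the population, 12 higher and 0 lower in clone 2 against the population and 77 higher and 78 lower in clone 1 against clone 2. With molecules of 2 or more reads (191 fragments), the mean level was 6.68% in clone 1, 6.91% in clone 2 and 6.52% in the population. Intermediate fragments numbered 18 in clone 1, 15 in clone 2 and 15 in the population. Blank molecules made up 66.5% in clone 1, 66.6% in clone 2 and 65.5% in the population. Mismatch was 31.9% in clone 1 and 35.4% in clone 2 on 19 fragments, where all molecules gave 33.3% in clone 1 and 35.0% in clone 2. Fragments called were 0 higher and 0 lower in clone 1 against the population, 0 higher and 0 lower in clone 2 against the population and 0 higher and 0 lower in clone 1 against clone 2. CpGs called were 0 higher and 0 lower in clone 1 against the population, 3 higher and 0 lower in clone 2 against the population and 10 higher and 10 lower in clone 1 against clone 2. Without the first and last CpG (4391 fragments), blank molecules made up 75.5% in clone 1, 74.0% in clone 2 and 76.2% in the population. Fragments called were 2 lower in clone 1 against the population. Without strands of over 25 molecules (4378 fragments), blank molecules made up 75.03% in clone 1, 73.6% in clone 2 and 75.8% in the population. With all CpG calls pooled, the mean level was 5.54% in clone 1, 5.48% in clone 2 and 4.72% in the population. Without the last stretch of fragment numbers (4316 fragments), the mean level was 5.11% in clone 1, 5.28% in clone 2 and 4.73% in the population. Intermediate fragments numbered 126 in clone 1, 135 in clone 2 and 107 in the population. Blank molecules made up 75.4% in clone 1, 73.8% in clone 2 and 76.0% in the population. Fragments called were 0 lower in clone 1 against the population. With molecules at 80% or more set against those at 20% or less, fragments called were 3 higher and 0 lower in clone 1 against the population, 4 higher and 1 lower in clone 2 against the population and 3 higher and 1 lower in clone 1 against clone 2. With 3 or more mixed molecules in each library, mismatch was 23.95% in clone 2. Depth limits the calls: no fragment difference under 32.3 points was called in the comparisons as reported.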
